A study of Mus musculus with 6 samples.

Results

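E2F1 binding was examined at 8 genes that encode the retinoblastoma pocket proteins (Rb1, Rbl1 and Rbl2), subunits of the MuvB complex (Lin9, Lin37, Lin52 and Lin54) and the forkhead factor Foxm1, chosen by name from 21887 protein-coding genes. A gene was counted as having a peak when a listed peak lay inside its GRCm38 span or within 1000 bp of it. The data were chromatin immunoprecipitation sequencing (ChIP-seq) peak lists from NIH/3T3 cells, an established mouse fibroblast line. In 2 libraries the cells carried a stably integrated doxycycline-inducible E2F1 construct, and in the other 2 a doxycycline-inducible empty vector (EV). Both kinds of cells had been starved of serum for 48 hours and then given doxycycline for 12 hours, so the starvation and the drug were common to both groups. The dose is not settled by the sources used here: the treatment protocol names 500 ng/ml of doxycycline, and the peak names of all 4 lists carry the number 200 before the drug, with no unit. The labels do not say whether the lines are clones or pools, nor that replicates 1 and 2 came from separate cultures, and the antibody is not given in the sources used here.

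Pocket proteins bind E2F factors and, when not phosphorylated by cyclin-dependent kinases, hold E2F target genes silent. In resting cells p130 or p107, the products of Rbl2 and Rbl1, join E2F4 and the MuvB core of LIN9, LIN37, LIN52, LIN54 and RBBP4 in the repressive DREAM complex. When cells enter the cycle, MuvB leaves the pocket proteins and joins B-MYB and then FOXM1, and these assemblies activate genes of G2 and mitosis. LIN54 is the subunit that reads the cell cycle genes homology region (CHR) in DNA. Several genes of this regulatory group are themselves known E2F targets.

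The E2F1 lists held 7836 and 8027 peaks in replicates 1 and 2, and the EV lists 70 and 358. Read depth itself is not at hand. The lowest local background at the peaks of a list, at best an indirect guide to depth, was 1.85 and 1.86 reads in the E2F1 lists. In the EV lists it was 2.20 and 1.18 reads. Every listed peak has a deposited −log10 p above 10, and at those backgrounds a site needed a pileup of 16 reads in either E2F1 list, 17 in EV replicate 1 and 13 in EV replicate 2. Where the local background is higher, more reads are needed. The median background at listed peaks was 3.92 and 2.83 reads in E2F1 replicates 1 and 2, and 12.5 and 5.12 in EV replicates 1 and 2. A gene without a peak therefore had a signal below such a limit, which is not the same as no signal. Fold enrichment is the authors' ratio of pileup to local background at the summit of a peak. A fold is placed below by its percentile, the percentage of peaks in the same list with a lower fold.

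E2F1 replicate 1 listed a peak at 7 of the 8 genes, where 36.9% of all protein-coding genes had one, and E2F1 replicate 2 at 8 of 8, where 38.2% did. Peaks in both E2F1 lists were found at 7 genes, all but Lin37, against 34.4% of all genes. The 8 genes were chosen with earlier results of these data known. These counts are therefore descriptions and no independent evidence of enrichment. Neither EV library listed a peak at any of the 8, and the shares of all genes there were 0.0366% and 0.407%. The difference in means was 7.5 genes per list. In an exact permutation test over libraries (two-sided) p was 0.333, and since no split of 2 and 2 libraries can give a lower one, 0.05 is out of reach of this design. The nearest EV peak to any of these genes was 1.05 Mb from Lin9, in EV replicate 2. In EV replicate 1 the nearest was 8.42 Mb from Lin37, and none was listed on chromosome 1, which holds Lin9.

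The E2F1 lists together held 17 peaks at these genes, 8 in replicate 1 and 9 in replicate 2, since Lin54 had a pair of peaks in each. The summits of 15 lay within 300 bp of a boundary of the gene. By library these were 7 of 8 and 8 of 9. Of all peaks chosen by the same rule, inside or within 1000 bp of a protein-coding gene, 60.4% of 7367 in replicate 1 and 66.3% of 7571 in replicate 2 had a summit that close to a gene boundary. Pileups at the 17 summits ran from 22 reads at Lin37 to 221 at Rbl1.

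**Figure D1:**
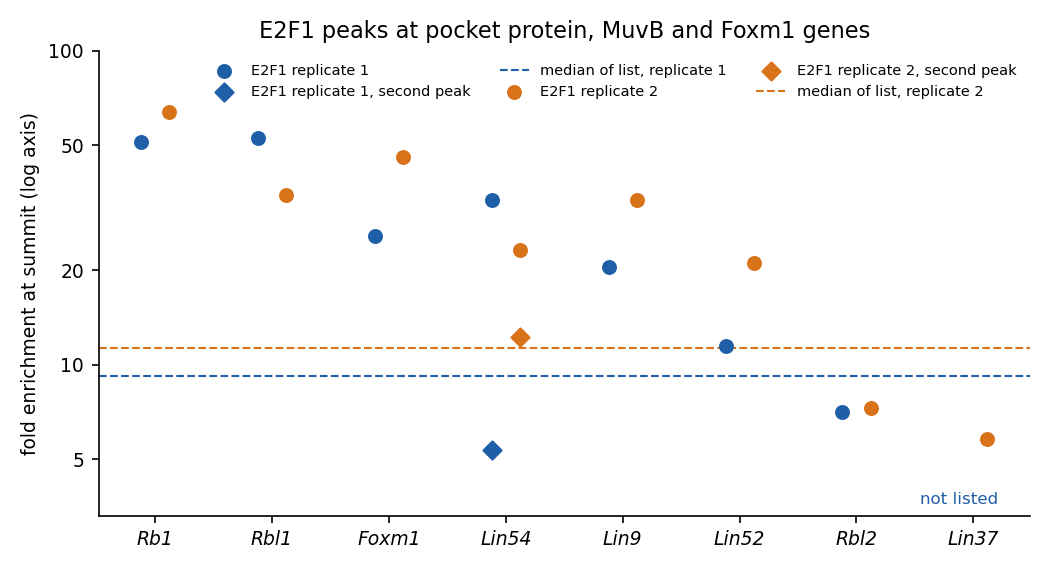
Fold enrichment at the summit (log axis) of each E2F1 peak at the 8 genes, ordered by the mean log2 fold over the list median, with circles for the strongest peak of a gene in a list, diamonds for the second peak of Lin54 and dashed lines for the medians of the lists (9.19 and 11.3). Rb1 stands highest by this mean, Rbl2 lies under both medians, and Lin37 has a peak in replicate 2 only.

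Rb1 encodes the retinoblastoma protein, the founding pocket protein and a tumour suppressor. Its peak had a fold of 51.2 in E2F1 replicate 1 and 63.7 in replicate 2. These folds ranked 32 of 7836 and 80 of 8027, at the percentiles 99.6 and 99.0. Relative to the median fold of each list, its log2 fold was 2.49 ± 0.011 (SD, n = 2), the smallest spread of the 7 genes with a value in both libraries. By the deposited folds, which were higher in replicate 2 at most peaks, the ratio of replicate 2 to replicate 1 was 1.24 at Rb1 and nearest to 1 at Rbl2, at 1.03. The peak spanned chr14:73324869-73326730 in replicate 1 and chr14:73325119-73326488 in replicate 2. The summits lay 12 and 14 bp inside the gene boundary at 73325951, and 2 bp from each other. No other peak of either E2F1 list was found in the 133094 bp of Rb1, a span that also holds Lpar6 and Mir687.

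Rbl1, which encodes p107, had the highest fold of the 8 genes in replicate 1 and the third highest in replicate 2. The fold was 52.6 in replicate 1 (rank 27, percentile 99.7) and 34.6 in replicate 2 (rank 583, percentile 92.7). The pileups were nearly equal at 214 and 221 reads, while the local background was 3.09 reads in replicate 1 and 5.42 in replicate 2. By the authors' score, which follows the p-value and not the ratio, the peak ranked 35 and 167. The peak lay at chr2:157203652-157205353 and chr2:157203554-157205168, with summits 178 and 173 bp outside the boundary at 157204534, which is also the annotated start of the gene. Both summits thus lie upstream of the start.

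Rbl2, which encodes p130, the pocket protein that is most abundant in resting cells, had the weakest peak of the 3. Its folds of 7.06 and 7.26 were below the list medians of 9.19 and 11.3, at the percentiles 31.8 and 24.7. The pileup at the summit was 36 reads in replicate 1 and 40 in replicate 2, over backgrounds of 4.24 and 4.65 reads. The fold at Rb1 was 7.25 times that at Rbl2 in replicate 1 and 8.77 times in replicate 2, and the fold at Rbl1 was 7.46 and 4.76 times as high. The peak covered chr8:91070086-91070628 in replicate 1 and chr8:91069988-91070659 in replicate 2, widths of 543 and 672 bp against list medians of 938 and 814 bp. Summits fell 269 and 179 bp downstream of the annotated start at 91070057. The 3 pocket protein genes thus carried peaks in both E2F1 libraries, with Rbl2 apart from the other two in both.

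Upstream sequence was compared between the pocket protein genes because their folds differed, using RefSeq promoter windows of GRCm38.p6 from 250 bases before to 50 after a start. The table held 6 windows for 5 of the 8 genes, Rbl1, Rbl2, Lin37, Lin52 and Lin54, the last with a pair of starts. Rb1, Lin9 and Foxm1 had no entry. Letters were searched on both strands: the E2F letters TTTCCCGC, TTTGGCGC, TTTGCCGC and TTTCGCGC, the CHR letters TTTGAA and TTCGAA, and CCAAT. The shorter E2F letters GGCGGGA, which can overlap TTTCCCGC on the opposite strand, were added after the sequences had been seen. The E2F letters were in 2.26% of all 32851 windows, and in 5.89% of the 6993 windows overlapped by a peak in both E2F1 lists. GGCGGGA was in 11.3% and 29.0%, the CHR letters in 19.2% and 11.1%, and CCAAT in 37.4% and 35.9%. Windows under a peak in both lists were also richer in G and C, with a median of 65.7% against 50% in the other windows. The 250 bases before the starts of Rbl1 and Rbl2 are shown 5′ to 3′ on the strand of the gene, with the searched letters in capitals.
Rbl1, minus strand, chr2:157204535-157204784: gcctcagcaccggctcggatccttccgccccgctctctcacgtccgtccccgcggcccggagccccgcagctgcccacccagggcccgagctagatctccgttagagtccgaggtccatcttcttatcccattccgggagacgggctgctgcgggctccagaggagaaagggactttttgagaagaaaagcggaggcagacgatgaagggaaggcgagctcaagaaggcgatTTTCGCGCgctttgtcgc
Rbl2, plus strand, chr8:91069807-91070056: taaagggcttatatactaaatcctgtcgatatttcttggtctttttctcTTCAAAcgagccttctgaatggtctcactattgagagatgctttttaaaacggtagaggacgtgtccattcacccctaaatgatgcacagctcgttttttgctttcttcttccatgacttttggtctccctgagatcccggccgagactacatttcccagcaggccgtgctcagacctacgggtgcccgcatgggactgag

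The Rbl1 window held 1 match to the E2F letters, beginning 18 bases before the start and inside the peak of both libraries, 164 and 158 bp from their summits. The Rbl2 window held none of the E2F letters and 1 match to the CHR letters on the opposite strand, beginning 201 bases before the start and outside both peaks. The Rbl1 window was 64% G and C with 29 CpG dinucleotides, and the Rbl2 window 50.7% with 14. A match is only a description of the letters, and sites with other letters or outside these windows were not searched.

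Lin9 encodes the MuvB subunit that helps to bind B-MYB. Its peak had a fold of 20.5 in E2F1 replicate 1 and 33.5 in replicate 2, at the percentiles 89.2 and 92.0. The pileup was lower in replicate 2, at 111 reads against 130, and so was the local background, at 2.34 reads against 5.40. Its summits lay 61 and 41 bp outside the gene boundary at 180641150, within peaks at chr1:180640138-180641958 and chr1:180640622-180642028. The next E2F1 peak in either library was at least 35033 bp from the gene.

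Lin54, the DNA-binding subunit of MuvB, was the only one of the 8 genes with more than 1 peak, and had the pair in both E2F1 libraries. The stronger peak, at chr5:100499694-100500804 and chr5:100499686-100500976, had folds of 33.4 (percentile 97.7) and 23.1 (percentile 82.2) in replicates 1 and 2. The weaker, at chr5:100498263-100498997 and chr5:100498169-100499048, had folds of 5.35 (percentile 10.6) and 12.2 (percentile 53.8). Listed intervals of the pair were separated by 696 and 637 bp. In replicate 1 the stronger fold was 6.25 times the weaker, and in replicate 2 it was 1.89 times. Each peak of the pair therefore kept its place above or below the other in both libraries, while the ratio between them varied.

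The pair matched the pair of annotated Lin54 starts, which lie 2066 bp apart on the minus strand. Summits of the stronger peak were 234 and 146 bp downstream of the start at 100500639. Those of the weaker peak were 93 bp downstream of the internal start at 100498573 in replicate 1 and 41 bp upstream of it in replicate 2. Sequences before both starts are shown because the stronger peak lies at the start whose window lacks the searched letters upstream. They are written as above.
Lin54, start at the gene boundary, minus strand, chr5:100500640-100500889: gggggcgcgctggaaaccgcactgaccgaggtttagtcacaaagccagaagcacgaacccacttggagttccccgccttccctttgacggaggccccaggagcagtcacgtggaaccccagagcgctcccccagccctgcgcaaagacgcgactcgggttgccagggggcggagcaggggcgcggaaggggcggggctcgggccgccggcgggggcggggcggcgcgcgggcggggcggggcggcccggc
Lin54, internal start, minus strand, chr5:100498574-100498823: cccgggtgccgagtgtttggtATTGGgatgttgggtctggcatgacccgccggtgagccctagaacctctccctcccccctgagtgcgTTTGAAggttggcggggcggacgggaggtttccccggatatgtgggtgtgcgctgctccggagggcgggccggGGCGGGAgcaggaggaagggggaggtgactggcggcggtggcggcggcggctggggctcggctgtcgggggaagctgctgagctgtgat

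Upstream of the start at the gene boundary none of the searched letters matched, and the window was 71% G and C with 35 CpG dinucleotides, the most of the 6. Before the internal start there was 1 match each to CCAAT on the opposite strand, to the CHR letters and to GGCGGGA. The GGCGGGA match began 89 bases before that start, inside both peaks, 179 and 45 bp from the summits. A further CHR match lay within the first 50 bases after each start.

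Lin52 encodes the small subunit whose phosphorylation by DYRK1A drives assembly of DREAM. The fold was 11.5 in E2F1 replicate 1 and 21.0 in replicate 2, both above the list medians, at the percentiles 64.1 and 79.2. The pileup was 37 reads over a background of 2.31 in replicate 1, and 59 over 1.86 in replicate 2. Summits fell 16 and 38 bp upstream of the annotated start at 84451508, in peaks at chr12:84451306-84452078 and chr12:84451272-84452088. The boundary of Aldh6a1, an enzyme of mitochondrial valine catabolism, is 484 bp from that of Lin52 and was 282 and 248 bp outside the peaks. Its upstream sequence is shown because E2F letters and summits nearly coincided there.
Lin52, plus strand, chr12:84451258-84451507: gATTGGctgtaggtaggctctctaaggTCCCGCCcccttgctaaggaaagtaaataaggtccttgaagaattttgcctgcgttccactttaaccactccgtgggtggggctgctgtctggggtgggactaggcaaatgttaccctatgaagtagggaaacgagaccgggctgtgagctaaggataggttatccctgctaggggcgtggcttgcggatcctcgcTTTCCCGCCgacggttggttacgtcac

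In the Lin52 window TTTCCCGC began 27 bases before the start, and its centre was 8 and 14 bp from the summits of replicates 1 and 2. It overlapped a GGCGGGA match on the opposite strand. Another such match began 223 bases before the start and lay inside the peak of replicate 2 only.

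Lin37 encodes a subunit that DREAM needs for repression but that MuvB does not need for activation. It was the one gene of the 8 without a peak in E2F1 replicate 1. In replicate 2 a peak at chr7:30559244-30559624 had a fold of 5.78, at the percentile 10.6, and its width of 381 bp was the smallest of the 17. The summit was 213 bp downstream of the annotated start at 30559646, with 22 reads over a background of 2.98 reads. At that background 19 reads would have passed the limit of the lists. The Lin37 promoter window held none of the E2F letters. It held a GGCGGGA match on the opposite strand, beginning 16 bases before the start, a CHR match beginning 197 bases before it, and CCAAT matches. All of these lay outside the peak. The nearest peak of replicate 1 lay 2577 bp from the gene, outside the window, at chr7:30551969-30552864, where Proser3 and Hspb6 have boundaries, with a fold of 8.40. Replicate 2 listed that peak too, with a fold of 11.1. Whether the libraries differ at Lin37 was not tested, since a site under the limit has no value.

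**Figure D2:**
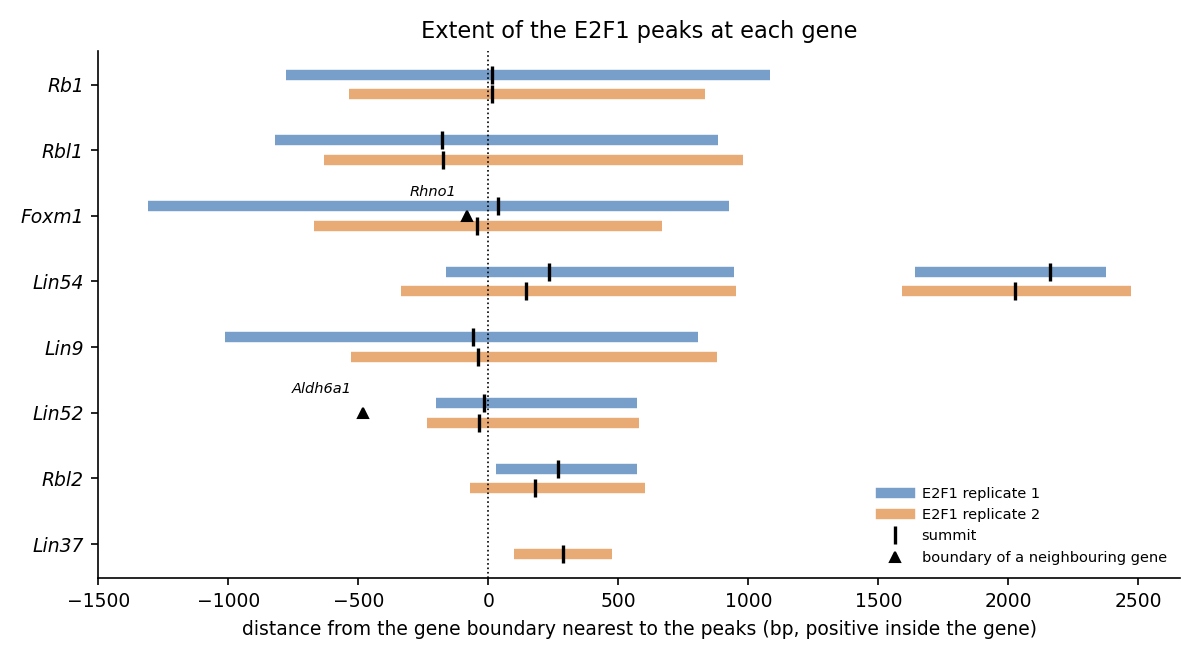
Extent of each E2F1 peak (bars) and its summit (black ticks) by distance in bp from the gene boundary nearest to the peaks, positive inside the gene, with triangles for boundaries of neighbouring genes. In both libraries peaks straddle the boundary at Rb1, Rbl1, Foxm1, Lin54, Lin9 and Lin52, and the weaker Lin54 peak lies about its internal start, with summits 2159 and 2025 bp inside the gene.

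Foxm1, the forkhead activator of mitotic genes, had folds of 25.7 in E2F1 replicate 1 and 45.8 in replicate 2, at ranks 449 and 266 and the percentiles 94.3 and 96.7. Pileups were close, at 183 and 175 reads, while the background was 6.17 reads in replicate 1 and 2.84 in replicate 2. The peak in replicate 1, chr6:128361683-128363919, was 2237 bp wide, the widest of the 17 and 2.38 times the median of its list. In replicate 2 it was 1339 bp wide, at chr6:128362323-128363661. Its summits lay 36 bp inside and 44 bp outside the Foxm1 boundary at 128362994. Rhno1, which encodes a partner of the replication checkpoint clamp, has a boundary only 83 bp from that of Foxm1, and both peaks covered it. With summits 119 and 39 bp from the Rhno1 boundary, this peak cannot be assigned to Foxm1 alone. No peak was listed at the other end of Foxm1, which overlaps Tex52.

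**Figure D3:**
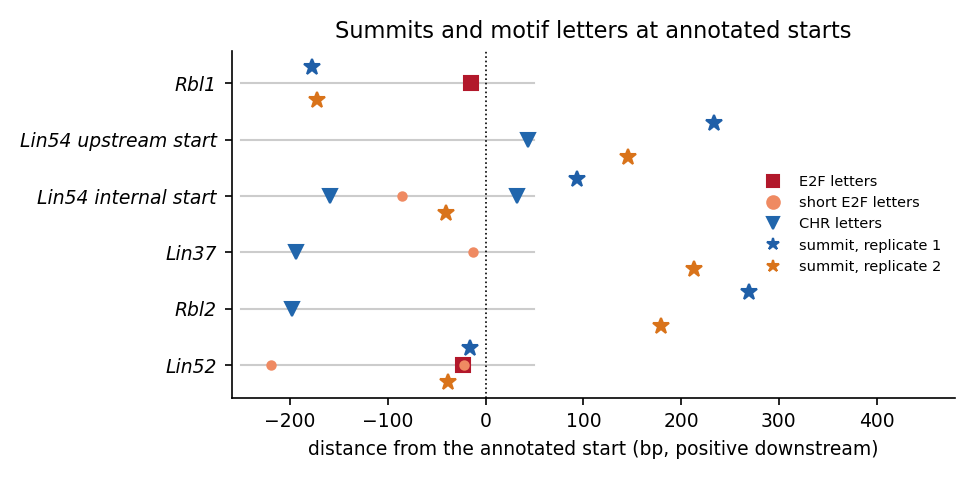
Position in bp from the annotated start of peak summits (stars, replicate 1 above and replicate 2 below each line) and of searched letters (squares for the E2F letters, circles for GGCGGGA, triangles for the CHR letters) at the 6 promoter windows (grey lines, 250 bases before to 50 after the start). Summits lie upstream of the start at Rbl1 and Lin52, and downstream at Lin37, Rbl2 and the start of Lin54 at the gene boundary.

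Placed in order by the mean log2 fold over the list median of their strongest peak (n = 2 libraries, SD), the genes ran from Rb1 (2.49 ± 0.011) through Rbl1 (2.07 ± 0.64), Foxm1 (1.75 ± 0.38), Lin54 (1.45 ± 0.59), Lin9 (1.36 ± 0.29) and Lin52 (0.61 ± 0.41) to Rbl2 (-0.51 ± 0.18). Neighbours in this order from Rb1 to Lin9 overlapped in the range of their libraries, so the order within each such pair is not settled by 2 replicates. Genes further apart did not all overlap. The lower value of Rb1, 2.48, was above the higher values of Foxm1 (2.02), Lin54 (1.86) and Lin9 (1.57). Lin9 and Lin52 did not overlap, nor did Lin52 and Rbl2. Lin37 has no value in replicate 1 and stands outside the order. Of all 7537 genes with a peak in both lists, ranked by mean log2 fold, Rb1 was 31, Rbl1 129, Foxm1 302, Lin54 625, Lin9 754, Lin52 2341 and Rbl2 6234. The median percentile over the 8 genes, with the absent Lin37 peak as 0, was 90.3, and the libraries gave 91.8 and 87.1. For the 7537 genes with peaks in both lists, from which genes without a peak are left out, it was 56.0.

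Fold, pileup and background did not always differ between the libraries in the same direction. Of the 8 peak pairs at these genes, 6 had a higher fold in replicate 2, as had 70.3% of 6882 one-to-one overlapping peaks, with a median ratio of 1.26. Exceptions were Rbl1, at 0.657, and the stronger Lin54 peak, at 0.691. Only 6.12% and 7.58% of the one-to-one pairs had lower ratios. The stronger Lin54 peak had 100 reads in replicate 1 and 65 in replicate 2, with backgrounds of 2.02 and 1.86 reads. Rbl1 differed in background and hardly in reads. At Lin9 and Foxm1 the replicate 2 pileups were 0.854 and 0.956 times those of replicate 1 although the folds were higher. Ranks by fold of these genes therefore carry the local background of each library as well as the reads at the site.

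**Figure D4:**
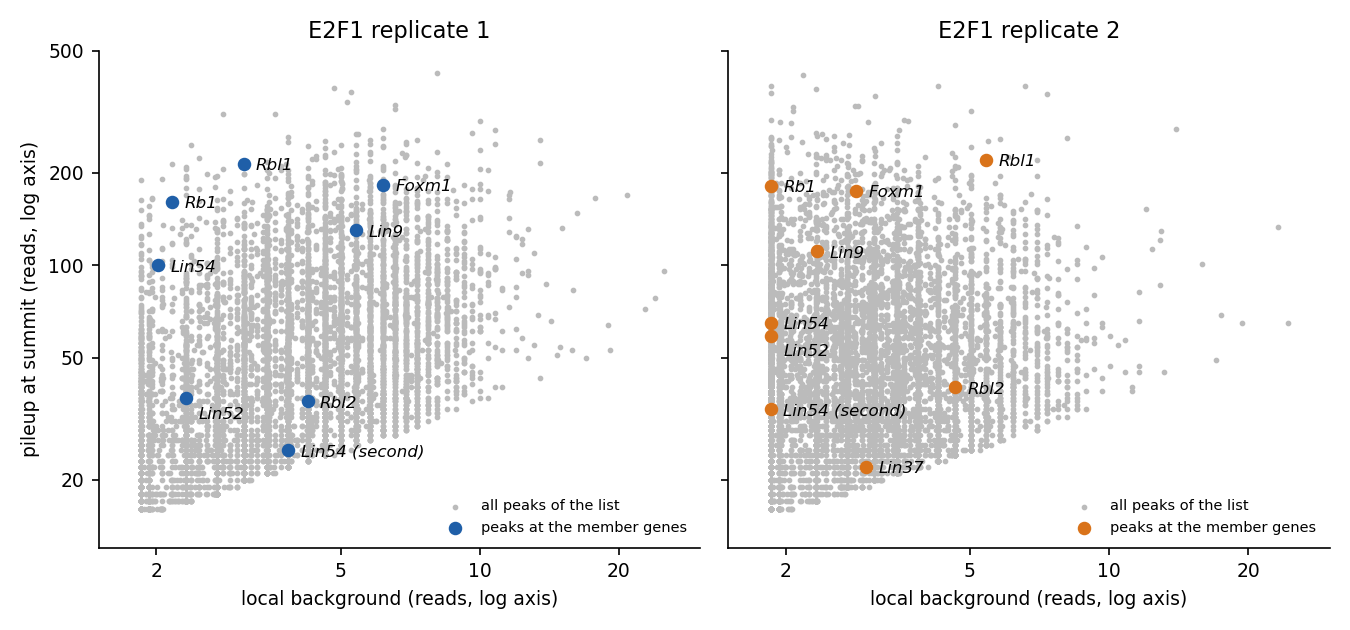
Pileup at the summit against local background, both in reads on log axes, for the peaks of E2F1 replicates 1 and 2 (grey, those beyond the axes not drawn) and for peaks at the 8 genes (coloured). Of the 8 genes Rbl1 has the most reads in both panels, at 214 and 221, and lies at a higher background in replicate 2 than in replicate 1, while Foxm1 and Lin9 lie at a lower one.

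Other genes of the pathway were counted in 4 lists, 62 genes in all. They were written from general knowledge but with earlier results of these data known, so the counts are descriptions and no independent evidence of enrichment. Of the 62, 54 (87.1%) had a peak in both E2F1 lists against 34.4% of all protein-coding genes. Counting only peaks at or above the median score of all E2F1 peaks left 32 of the 62, against 16.9% of all genes. Among the partners of MuvB and the pocket proteins in DREAM and in the B-MYB assembly, 9 of 9 did, and 7 of 9 at the median score. Tfdp1, the dimer partner of E2F factors, was highest in both libraries with folds of 55.4 and 85.8. By mean log2 fold Mybl1, a relative of B-MYB, came next at 4.61, with folds of 21.4 and 28.0. Dyrk1a, which encodes the kinase of LIN52, was close at 4.59, and its fold of 34.6 in replicate 2 was higher than that of Mybl1. Mybl2, which encodes B-MYB itself, had 11.7 and 16.3, and Rbbp4, the remaining MuvB subunit, had 11.5 and 30.4. Lowest of the 9 by mean log2 fold were Dyrk1b and E2f4. Dyrk1b had folds of 7.83 and 5.30, at the percentiles 39.0 and 6.28. E2f4 had 12.2 and 5.54, at the percentiles 67.8 and 8.66. Of the cyclins and kinases that act on pocket proteins, 8 of 10 had peaks in both lists and 7 of 10 at the median score, led by Ccne1 (65.0 and 131.6) and Ccne2 (45.3 and 64.5), the E-type cyclins. Ccnd1, a D-type cyclin, had a peak in neither, and Ccnd2 in replicate 1 only.

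Co-repressors and chromatin partners of the pocket proteins had a peak in both lists at 18 of 19 genes, and at 11 of 19 at the median score. Of all protein-coding genes 34.4% had one, and 16.9% at the median score. Highest by mean log2 fold were Ctbp1 and Dnmt1. Ctbp1, a co-repressor, had folds of 43.0 and 66.3, and Dnmt1, the maintenance DNA methyltransferase, 21.8 and 38.5. Arid4b, a subunit of the SIN3 repressor, had no peak. Late cell cycle genes served by B-MYB, MuvB and FOXM1 had a peak in both lists at 19 of 24, and at 7 of 24 at the median score, beside the same shares of all genes. By mean log2 fold they were led by Kif23, a kinesin of cytokinesis, with 16.6 and 40.2, and Birc5, which encodes survivin, with 17.8 and 33.4. The mitotic regulators Cdc20 and Cdc25c had a peak in neither E2F1 list. Bub1b and Cdc25b had one in replicate 2 only, and Hmmr in replicate 1 only. With absent genes as 0, the median percentile was 77.1 for the partners, 83.5 for the cyclins and kinases, 60.4 for the co-repressors and 44.2 for the late genes, beside 90.3 for the pocket protein, MuvB and Foxm1 genes. No EV library listed a peak at any of the 62, where only 0.0366% and 0.407% of all protein-coding genes had one in EV replicates 1 and 2. The lists were not compared by a test.

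**Figure D5:**
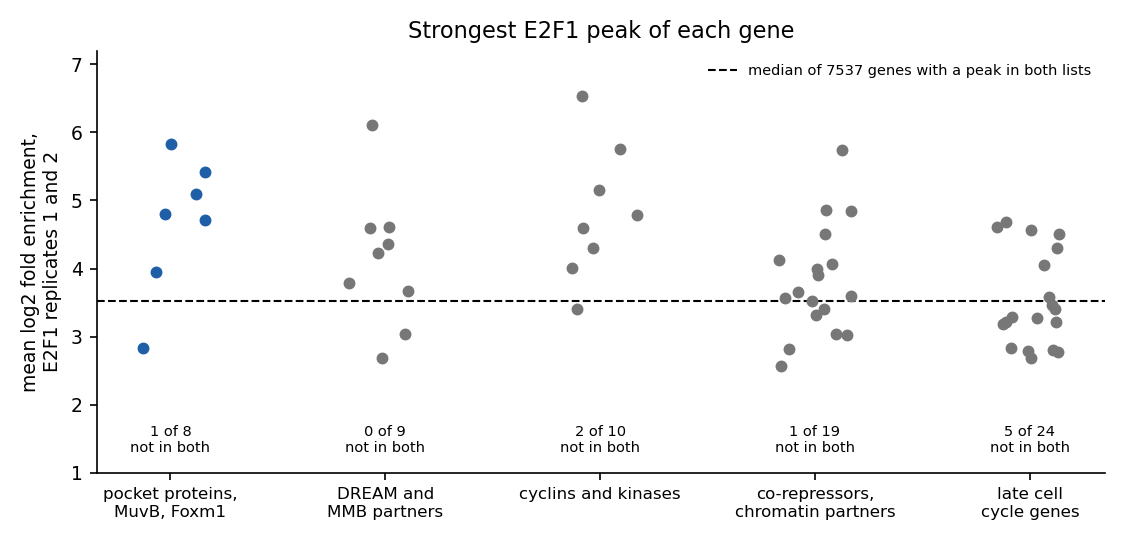
Mean log2 fold enrichment over E2F1 replicates 1 and 2 of the strongest peak of each gene, for the 8 pocket protein, MuvB and Foxm1 genes (blue) and the 4 pathway lists (grey), with the number of genes lacking a peak in one or both lists written below and the median of all 7537 genes with peaks in both as a dashed line. In the first column 6 genes lie above that line and Rbl2 below it, and late cell cycle genes lie on either side of it.

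For the 3 genes with the highest mean log2 fold, the gene with the most similar peak elsewhere was found by the distance in log2 fold and log2 width over the 2 E2F1 libraries, 4 values in all. Closest to Rb1 was Patl1, with folds of 41.0 and 67.0 (distance 0.34). Rbl1 was nearest to Slc12a2, with 46.9 and 40.9 (distance 0.32). The gene most like Foxm1 was Tmcc2, at 24.8 and 44.4 (distance 0.13).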

How the data were processed

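The 4 ChIP libraries with a peak list entered the comparisons. The 2 EV input samples were not analysed here. Sample titles gave the group and the replicate number of each library. The submitters' processing notes name FastQC, Trimmomatic, Bowtie2, MACS2 and ChIPseeker and the build mm10, without roles or settings. The deposited fold (a ratio), score (10 times −log10 q, rounded down), −log10 p-value and −log10 q-value are the authors' values in narrowPeak columns. Peaks were taken as called per library, because each list has its own peaks. The control used for each list is not given in the sources used here.

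Pileup and background were solved from the deposited fold (pseudocount 1) and −log10 p, read as a Poisson tail above the pileup. Both values were met by a whole number of reads within 5% of the step between neighbouring pileups for 95.7% to 99.99% of peaks per list and for every peak at the 8 genes. The solver and the gene windows were tested on simulated data. Gene spans came from RefSeq GRCm38.p6, which gives no strand, and starts from its promoter table. All symbols matched. Peaks overlapping by at least 1 bp were paired. Python 3.11.15, pandas 2.3.3 and scipy 1.17.1 were used.

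Named genes were the 8 genes, genes sharing their peaks, and from each pathway list those without a peak in both E2F1 lists (at most 6) and the 2 with the highest mean log2 fold. Mybl2, Rbbp4, Dyrk1a, Dyrk1b and E2f4 were added after their values were seen. The genes and lists were chosen with earlier results of these data known. Alternatives covered the window, summit, score threshold, ranking and replicates.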

Additional observations from a re-analysis of the deposited data

How the results depend on the processing

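Of 44 alternatives over 19 results, 43 stayed within 1.5 times the count, within the replicate spread or on the same side, and 1 did not. Many of the 43 could not differ. The peak nearest to the gene boundary was also the strongest at every gene, so that choice changed no fold. Leaving out an EV list, which held no peak at these genes, could not change the difference either. With peaks at or above a score of 312, the median of all E2F1 peaks, 32 of the 62 pathway genes kept a peak in both E2F1 lists instead of 54, and 5 of the 8 pocket protein, MuvB and Foxm1 genes did, without Rbl2, Lin37 and Lin52. All genes fell from 34.4% to 16.9% there, since fewer peaks were counted by construction. A window of 5000 bp brought in the peak near Lin37 and gave 8 of 8. Leaving out one library gave 7 to 8 genes, a difference from EV of 7 to 8 genes, and a median percentile of 87.1 to 91.8.

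With the replicate block the difference stayed at 7.5 genes, and the exact sign-flip permutation test gave p = 0.5, the smallest that 2 pairs allow. Nothing in the labels says that equal numbers pair the libraries. The limit of the lists, a −log10 p of 10, restricts every statement to sites above it, and weak peaks such as that at Lin37 lie close to it.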
